A study of Mus musculus with 1078 samples.

Results

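The CD45-positive sort of GL261 brain tumors held 99 cells of the comparison described here, 59 labelled myeloid by the depositors and 40 labelled microglia. The cells were chosen by 2 deposited annotations. Every cell with the myeloid label was taken, and of the cells with the microglia label only those in deposited cluster 6. They came from the losartan plate (34 myeloid cells and 24 microglia) and the control plate (25 myeloid cells and 16 microglia), out of 1078 cells in the series and 240 in the sort. All 59 myeloid cells lay in deposited cluster 5.

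GL261 is a mouse glioma line, and the tumors grew in the brains of C57Bl/6 mice. Mice on the losartan plate had received losartan, which blocks the angiotensin II receptor AT1, and those on the control plate had received saline. By the study's methods, mice without anti-PD1 were given control IgG. The sort kept single, viable, CD45-positive cells, a gate for immune cells. The study's methods list such cells both with and without surface CD3, and the plate names give only CD45. In this sort 1 cell of the control plate was labelled a T cell. Each plate is a single library set of a single treatment, no cell is tied to an animal, and the labels give neither age nor sex, so losartan cannot be told apart from the plate. The labels were also made by clustering these cells on these values. Every value below is therefore a description of the cells of each type on each plate, with 1 sample per type and plate and no test.

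Conventional dendritic cells take up antigen, carry it to lymph nodes on MHC class II and present it to T cells, and they arise under the cytokine Flt3 ligand, read by the receptor Flt3. Microglia are the resident macrophages of the brain. They depend on the receptor Csf1r, scan the tissue through the purine receptor P2ry12 and clear synapses and dead cells with the help of complement C1q and lysosomal proteases. Both carry CD45, and macrophages that enter a tumor from the blood share many genes with each.

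Expression was read from expected counts scaled to 100000 per cell (TP100K), which are not divided by gene length and are compared only between cells for the same gene. The median cell held 433416 expected counts among myeloid cells and 347738 among microglia of the losartan plate, against 470826 and 630698 on the control plate. Median detected genes were 4591 in myeloid cells and 3396 in microglia of the losartan plate, and 3859 and 4275.5 on the control plate, so the deeper type was not the same on both plates. The pre-ribosomal RNA gene Rn45s was the highest gene in all 99 cells, with a median share of 10.5% and 10.9% on the losartan plate and 20.7% and 24.1% on the control plate. Intervals on shares are exact Clopper-Pearson 95% intervals and cover counting error over cells only. For a gene at 0 in every cell, the limit given is instead 3 cells of the number examined, and it bounds cells with a value above 0, not cells that express the gene.

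The myeloid cells carried dendritic cell markers on both plates, whereas the cells labelled microglia carried microglia markers mainly on the losartan plate. Of 24 conventional dendritic cell markers, the median myeloid cell had 16.5 above 0 on the losartan plate and 15 on the control plate, and the median microglial cell had 6 and 8.5. Of 18 microglia markers, the median myeloid cell had 5 above 0 (2 to 18) on the losartan plate and 4 (2 to 7) on the control plate. The median microglial cell of the losartan plate had 16.5 (3 to 18), and that of the control plate had 9 (3 to 12). At least 15 of the 18 markers were above 0 in 14 of 24 microglia of the losartan plate and in 0 of 16 of the control plate.

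**Figure D1:**
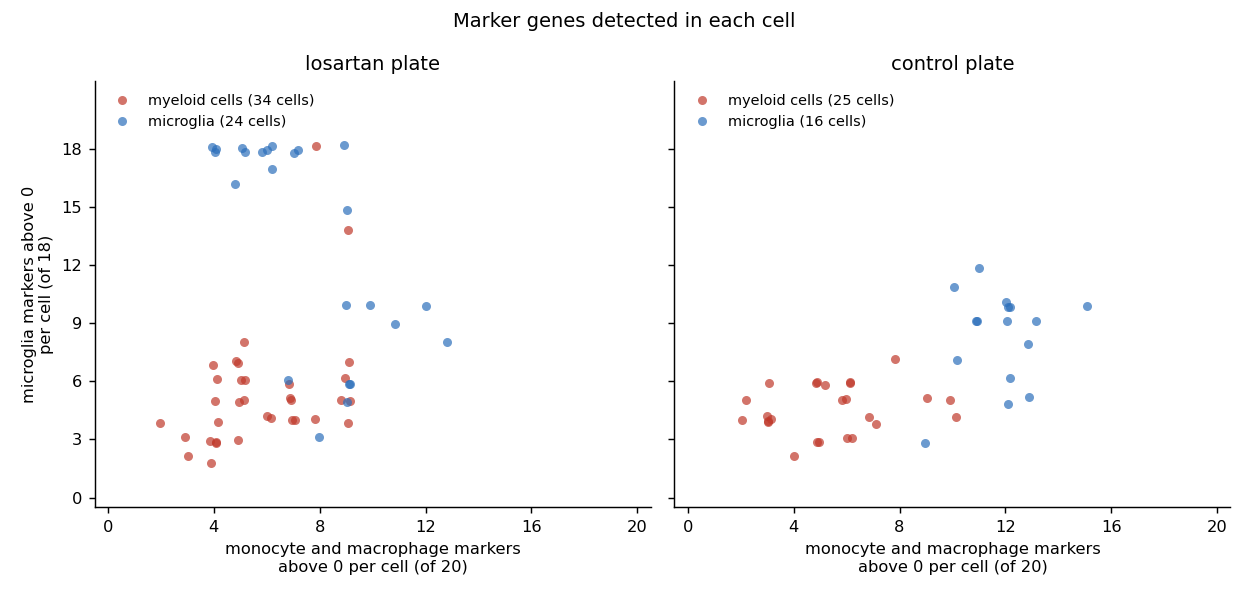
Each point is a cell, placed by how many of 20 monocyte and macrophage markers (x axis) and of 18 microglia markers (y axis) were above 0, with a small jitter, on the losartan plate (left) and the control plate (right). On the losartan plate 1 myeloid cell (red) carries all 18 microglia markers and 14 of 24 microglia (blue) reach 15 or more, while microglia of the control plate reach at most 12.

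P2ry12, the purine receptor that defines resting microglia, shows the difference between the plates. Among microglia of the losartan plate it had a median of 91.1 TP100K (0 to 800) and was above 0 in 18 of 24 cells, while on the control plate its median was 2.76 (0 to 28.7) with 9 of 16 cells above 0. Sall1, a transcription factor that holds microglial identity, was above 0 in 13 of 24 microglia of the losartan plate and in 0 of 16 of the control plate, which allows a share of up to 18.75%. Ms4a7, a membrane protein of macrophages, was at 0 in all 34 and all 25 myeloid cells. In microglia it went the other way, with 8 of 24 microglia above 0 on the losartan plate (33.3%, 15.6 to 55.3%) and 14 of 16 on the control plate (87.5%, 61.7 to 98.4%).

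The summed level of the 18 microglia markers had a median of 3136.75 TP100K in microglia of the losartan plate (94.1 to 7776) and 363 in those of the control plate (43.8 to 696). The 20 monocyte and macrophage markers ran the other way, with medians of 348 TP100K (86.8 to 2444) and 678 (319 to 2820). P2ry12, Tmem119 and Sall1 were all above 0 in 13 of 24 and 0 of 16 microglia, and none of the 3 was in 6 of 24 and 5 of 16. The control-plate cells with the microglia label are therefore called microglia here by their label only, since the markers Sall1, Slc2a5 and Sparc were at 0 in all 16 of them. The share of macrophages among them was not tested.

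Markers of most other cell types were at or near 0 in both types. The median cell of each type on each plate had a summed level of 0 TP100K for 7 NK cell, 7 B cell and 7 endothelial markers, and at most 0.504 for 10 malignant and glial markers. The 8 T cell markers had a median sum of at most 0.0732 TP100K in each type and plate. Single cells were higher. On the losartan plate the highest sums in myeloid cells were 119 TP100K for T cell, 84.9 for B cell and 53.1 for NK cell markers. In microglia of that plate they were 1.74, 212 and 0. Of the 8 T cell markers, 1 passed the detection filter, with ratios of 2.52 and -0.26. The lymphocyte genes Cd3e, Cd79a and Ncr1 were at 0 in all myeloid cells and above 0 in 2 of 24 microglia of the losartan plate. The 9 neutrophil markers had median sums of 3.69 TP100K (0 to 181) in myeloid cells and 23.3 (0 to 133) in microglia of the losartan plate, and 2.71 (0.375 to 28.5) and 10.4 (0.941 to 49.5) on the control plate. One of them, Csf3r, was past 2-fold toward microglia on both plates, S100a8 and S100a9 were at 0 in all microglia of the losartan plate, and 1 myeloid cell of that plate had all 9 above 0. The part of neutrophil RNA in the ratios was not tested. Of 10 plasmacytoid dendritic cell markers, 3 passed the detection filter and 0 were higher in myeloid cells on both plates, while Runx2 was past 2-fold in opposite directions. Their summed level had a median of 30 TP100K in myeloid cells and 82.8 in microglia of the losartan plate. On the control plate these medians were 26.1 and 27.5. Siglech, on this list, is also a microglia marker.

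For the comparison, each gene's mean over the myeloid cells was set against its mean over the microglia of the same plate, as a log2 ratio with 1 TP100K added to both means. A gene entered if, on each plate, 25% or more of the myeloid cells or of the microglia had it above 0. The type that reached 25% could differ between plates. This held for 6999 of 21765 genes, and a gene counted where the ratio was past 2-fold in the same direction on both plates. By this rule 335 genes (4.79%) were higher in myeloid cells and 316 (4.51%) were higher in microglia, and 139 (1.99%) were past 2-fold in opposite directions. These shares over all 6999 genes are the background for the counts given below for each gene list. The median ratio over all 6999 genes was 0.01 on the losartan plate and 0.08 on the control plate.

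Single plates gave far longer lists. On the losartan plate 967 of the 6999 genes were past 2-fold toward myeloid cells and 933 toward microglia, and on the control plate 955 and 790. The 335 shared genes were 34.6% of the first myeloid list and 35.1% of the second, and the 316 were 33.9% and 40% of the microglial lists. Across the 6999 genes the ratios of the plates had a Pearson correlation of 0.46 and a Spearman correlation of 0.32, given as a description, since genes are not independent and each plate has its own depth. With 10 TP100K added in place of 1, 60 and 77 genes were past 2-fold on both plates, and with every cell thinned to 50000 counts, 279 and 282 were.

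**Figure D2:**
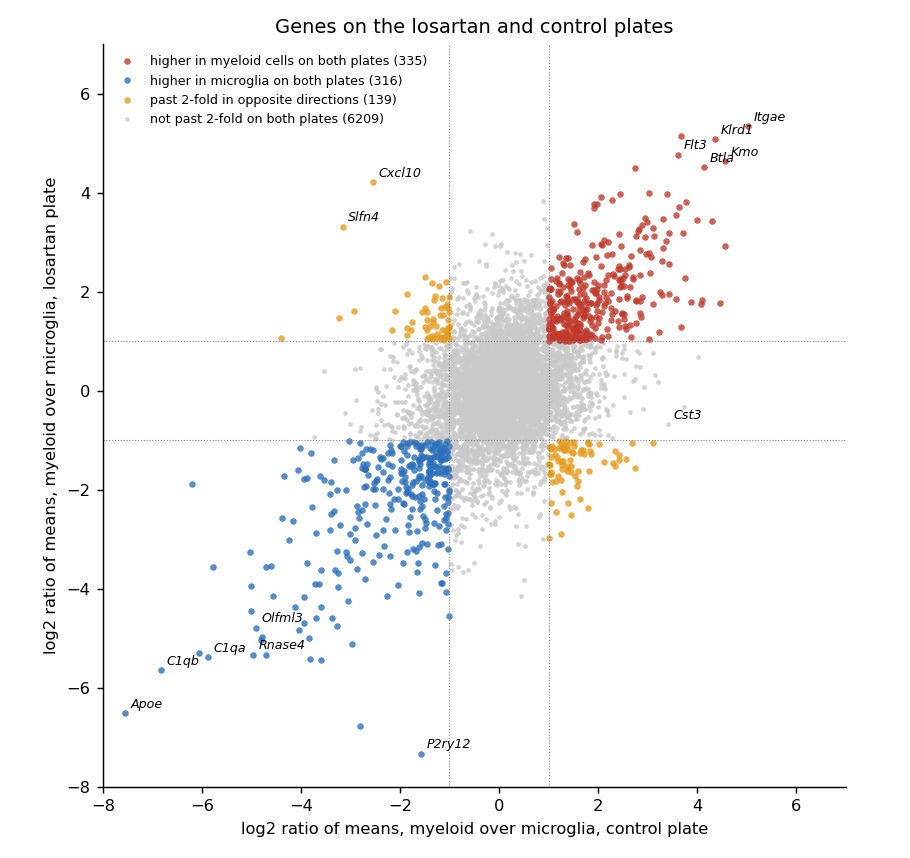
Each point is 1 of 6999 genes, with the log2 ratio of means, myeloid over microglia, on the control plate (x axis) and the losartan plate (y axis), and dotted lines at 2-fold. Itgae, Kmo and Klrd1 lie at the myeloid end on both plates and Apoe and C1qb at the microglial end, while the ratio of P2ry12 was -7.33 on the losartan plate and -1.58 on the control plate.

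The genes highest in myeloid cells on both plates were led by Itgae, the integrin alpha chain CD103 of migratory dendritic cells and of lymphocytes in epithelia. In myeloid cells it had a median of 42.6 TP100K on the losartan plate (0 to 302) and 12.2 on the control plate (0 to 193). In microglia its median was 0 on both plates, with highest cells of 19.8 and 4.34. Itgae was above 0 in 21 of 34 myeloid cells (61.8%, 43.6 to 77.8%) against 2 of 24 microglia (8.33%, 1.03 to 27%) on the losartan plate, and in 17 of 25 against 2 of 16 on the control plate. The myeloid cells without it overlap the microglia at 0, and 18 of 34 and 14 of 25 myeloid cells lay above every microglial cell of their plate. The log2 ratios were 5.34 and 5.03. Itgb7, the beta chain that pairs with Itgae, had ratios of 3.77 and 1.98, and Cdh1, which encodes the E-cadherin that the pair binds, had ratios of 5.15 and 3.68.

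Flt3, the receptor for the growth factor of dendritic cells, was near absent from microglia. Its median was 24.8 TP100K in myeloid cells of the losartan plate (0 to 99.5) and 23.8 in those of the control plate (0 to 124). Among microglia it was above 0 in 2 of 24 cells, the highest at 1.24, and in 1 of 16 cells, at 28.9. Nearly all myeloid cells with Flt3 were thus above nearly all microglia, and the log2 ratios were 4.76 and 3.62. Zbtb46, a transcription factor of conventional dendritic cells, was above 0 in 23 of 34 myeloid cells and 1 of 24 microglia, and in 14 of 25 and 0 of 16. Its means were 13 TP100K in myeloid cells and 0.899 in microglia of the losartan plate, with a ratio of 2.88, and 8.98 in myeloid cells of the control plate.

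**Figure D3:**
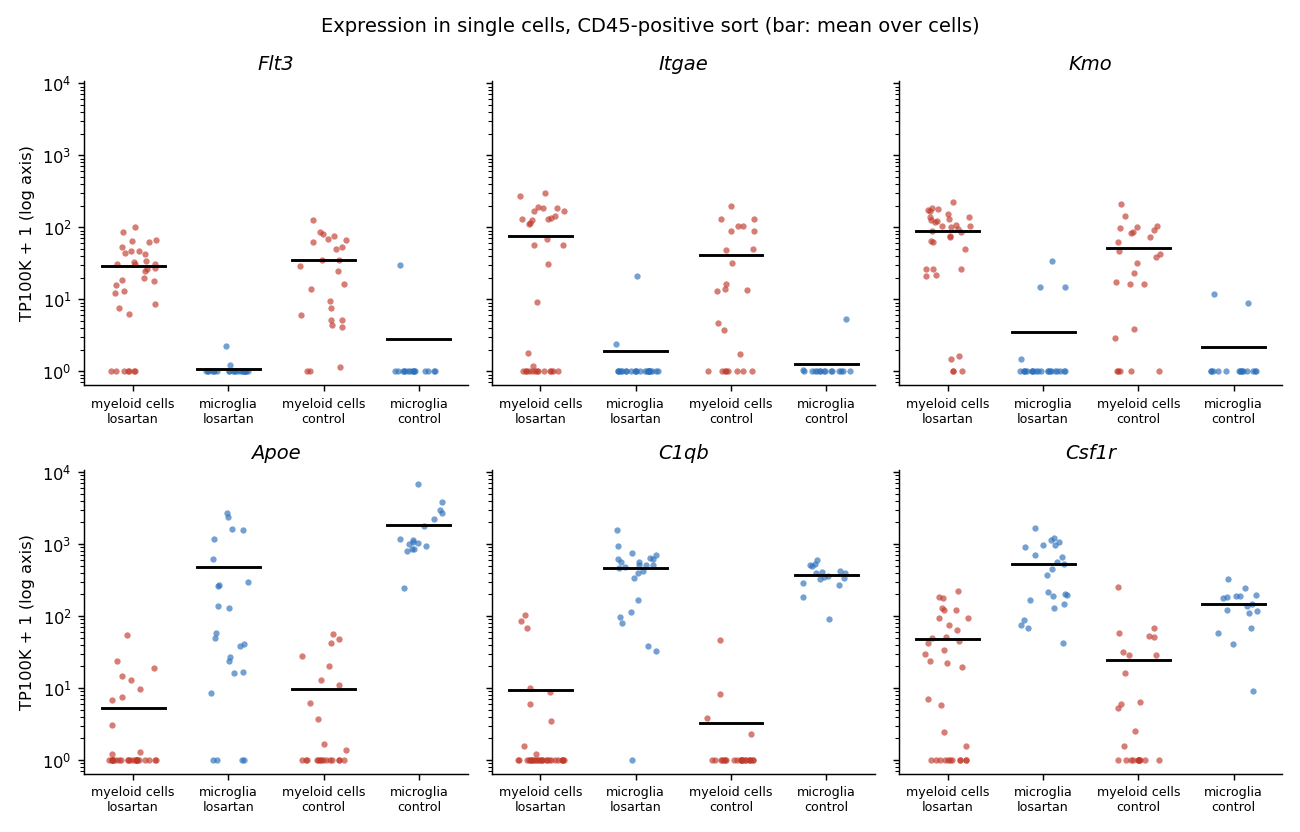
TP100K + 1 on a log axis in each cell for Flt3, Itgae and Kmo (upper row) and Apoe, C1qb and Csf1r (lower row), with myeloid cells left of microglia on the losartan and control plates and bars at the mean over cells. Flt3, Itgae and Kmo sit at 0 in most microglia, while Apoe ranges from 0 to 2735 TP100K in microglia of the losartan plate and from 245 to 6910 on the control plate.

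Of the 24 dendritic cell markers, 21 passed the filter, 14 were higher in myeloid cells on both plates and 1, Sirpa, was higher in microglia. The list median was 2.47 on the losartan plate and 2.20 on the control plate, beside 0.01 and 0.08 over all genes. Kmo, which encodes kynurenine 3-monooxygenase of tryptophan breakdown, had a median of 91.7 TP100K in myeloid cells (0 to 225) and 0 in microglia (0 to 33.5) of the losartan plate, and 37.6 (0 to 211) and 0 (0 to 10.7) on the control plate. It was above 0 in 31 of 34 and 20 of 25 myeloid cells, with ratios of 4.64 and 4.57. Btla, an inhibitory receptor of the CD28 family, had ratios of 4.51 and 4.14. Dpp4, the surface peptidase CD26, had 3.96 and 2.44, and Napsa, an aspartic protease, had 3.12 on both plates.

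Other markers on the list were less even. Plbd1, a phospholipase B-like protein, averaged 166 TP100K in myeloid cells and 24.9 in microglia of the losartan plate (2.69), and 118 and 50.7 on the control plate (1.2), where all 16 microglia were above 0. Naaa, a lysosomal amidase, was past 2-fold on both plates, and Wdfy4, needed in mice for cross-presentation by dendritic cells, had ratios of 1.90 and 2.58. Amica1, a junctional adhesion molecule-like protein, had 2.34 and 2.20. Itgax, the CD11c chain often used to gate dendritic cells, was not past 2-fold on either plate, with means of 67.3 TP100K in myeloid cells and 35.5 in microglia of the losartan plate and 59.1 and 56 on the control plate. Irf8 likewise differed little, with ratios of 0.09 and 0.36. Sirpa, which encodes the CD47 receptor of macrophages and of a subset of dendritic cells, averaged 32.5 in myeloid cells and 117 in microglia, with ratios of -1.82 and -1.40.

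Genes of both dendritic subsets were detected within the myeloid cells, and also in some microglia. Type 1 conventional dendritic cells carry the chemokine receptor Xcr1 and the dead-cell lectin Clec9a, and type 2 cells carry lectins such as Cd209a, Clec10a and Mgl2. Xcr1 or Clec9a was above 0 in 24 of 34 myeloid cells of the losartan plate and 18 of 25 of the control plate, and at least 1 of the 3 lectins was in 22 of 34 and 11 of 25. Both kinds were found in 15 of 34 and 7 of 25 cells, and neither kind in 3 of 34 and 3 of 25. Among microglia, at least 1 of the 3 lectins was above 0 in 3 of 24 and 8 of 16 cells. Both kinds were found in 2 of 24 and 5 of 16 microglia. On the control plate these shares in microglia (50% and 31.25%) were thus no lower than those in myeloid cells (44% and 28%). The subsets therefore could not be split by detection alone. Xcr1 was above 0 at trace levels also in 12 of 24 and 8 of 16 microglia, where its median was 0.05 and 0.07 TP100K, and 8 of 34 and 4 of 25 myeloid cells lay above every microglial cell.

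Clec9a was above 0 in 9 of 34 myeloid cells and 1 of 24 microglia of the losartan plate, and in 7 of 25 and 1 of 16 on the control plate, with ratios of 2.24 and 1.44. Cd209a was found in 6 of 34 and 3 of 25 myeloid cells, the highest at 1178 TP100K, and was at 0 in all microglia. Mgl2 was above 0 in 15 of 34 myeloid cells and 3 of 24 microglia of the losartan plate, and in 8 of 25 and 5 of 16 on the control plate. Its ratio was 1.48 on the losartan plate and -0.23 on the control plate, so the type 2 lectin did not mark the myeloid cells on both.

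A few myeloid cells carried Ccr7, the receptor that guides mature dendritic cells to lymph nodes. It was above 0 in 5 of 34 cells (14.7%, 4.95 to 31.1%) and 4 of 25 (16%, 4.54 to 36.1%), with highest cells of 1034 and 1266 TP100K, and it was at 0 in all microglia. Fscn1, an actin-bundling protein of mature dendritic cells, was above 0 together with Ccr7 in 1 of 34 and 2 of 25. By itself Fscn1 was above 0 in 5 of 34 myeloid cells and 14 of 24 microglia of the losartan plate, and in 2 of 25 and 0 of 16 on the control plate, so on the losartan plate it was found more often in microglia. Of 20 migration and actin genes of mature dendritic cells, 9 passed the filter, 4 were higher in myeloid cells on both plates and 1 (Anxa3) was lower. Among these, Traf1, an adaptor of tumor necrosis factor receptors, had ratios of 2.36 and 2.30, and Relb, an NF-kB subunit needed for dendritic cell maturation, had 1.76 and 2.15. Tbc1d4, a regulator of vesicle traffic, averaged 10.1 TP100K in myeloid cells of the losartan plate and 18.7 on the control plate, yet the median was 0 on both and the highest cells reached 227 and 398.

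Klrd1 and Klrk1, both receptors known from NK cells, were among the 15 genes highest in myeloid cells, although none of the 7 listed NK cell markers passed the filter. Klrd1, the CD94 chain of NKG2 receptors, was above 0 in 27 of 34 myeloid cells of the losartan plate (79.4%, 62.1 to 91.3%), with a median of 17.6 TP100K and a highest cell of 138. On the control plate it was above 0 in 14 of 25 (56%, 34.9 to 75.6%), with a median of 7.05 and a highest cell of 102. All 24 and all 16 microglia were at 0, which allows shares of up to 12.5% and 18.75%. Klrk1, the activating receptor NKG2D, had a median of 55 (0 to 323) in myeloid cells and 0 (0 to 54.6) in microglia of the losartan plate, and 36.9 (9.70 to 220) and 0 (0 to 50.8) on the control plate, with ratios of 3.54 and 3.58. Ncr1 and Prf1, which define cytotoxic NK cells, were at 0 in every cell of both types. The NK receptor Klrb1c and Gzma were at 0 in all 34 and all 25 myeloid cells. Eomes, Klre1 and Nkg7 were each above 0 in at least 1 myeloid cell of the losartan plate, and Klre1 on the control plate. No myeloid cell had more than 1 of the 7 above 0, and the highest sums were 53.1 and 12.5 TP100K. On the same plates Ncr1 was above 0 in 3 of 5 and 9 of 10 NK cells and at 0 in the B and T cells. The part of NK cell RNA in the ratios was not tested.

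Adhesion and surface genes were among the rest of the leading 15. Cldn1, a claudin of tight junctions, was above 0 in 20 of 34 and 15 of 25 myeloid cells and at 0 in all microglia. Epcam, an epithelial adhesion molecule also found on Langerhans cells, had ratios of 3.19 and 3.71, and Cd24a, a glycosylated surface anchor protein, had 3.18 and 3.43. Cfp, which encodes properdin of the alternative complement pathway, averaged 76.4 TP100K in myeloid cells and 6 in microglia of the losartan plate, and 60.7 and 5.23 on the control plate. Ifitm1, an interferon-induced membrane protein, averaged 198 and 11.7, and 128 and 11.3. Snx22, a sorting nexin, had a median of 0 in myeloid cells of both plates, with 14 of 34 and 10 of 25 above 0. When all cells with the microglia label were used, which adds 6 and 12 cells of cluster 11 that carry neutrophil markers, the ratio of Cd24a was -1.30 on the losartan plate and that of Cdh1 -0.44 on the control plate.

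All 14 listed growth factor receptors passed the filter, 2 were higher in myeloid cells (Flt3 and Kit), 3 in microglia (Csf1r, Csf3r and Tgfbr2) and 9 in neither on both plates. Ratios split into 7 positive and 7 negative on each plate, with list medians of -0.15 and -0.21 beside 0.01 and 0.08 over all genes. Kit, the receptor of stem cell factor, had a median of 23.8 TP100K (0 to 81) in myeloid cells and 0 (0 to 20.1) in microglia of the losartan plate, and 15.5 (0 to 62.6) and 0 (0 to 9.26) on the control plate, with ratios of 3.71 and 3.63. Csf1r, the survival receptor of microglia and macrophages, had a median of 21.9 (0 to 221) in myeloid cells and 411 (40.9 to 1691) in microglia of the losartan plate, and 1.49 (0 to 248) and 140 (8.16 to 327) on the control plate. Every microglial cell was thus above 0 for Csf1r, with ratios of -3.47 and -2.55, although 23 of 34 and 14 of 25 myeloid cells were too. Csf2rb, the shared beta chain of the GM-CSF, IL-3 and IL-5 receptors, was past 2-fold on the losartan plate only (1.41, against 0.56 on the control plate).

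Among 14 transcription factors of dendritic cells, 5 were higher in myeloid cells on both plates and 1, Zeb2, was higher in microglia, with list medians of 0.78 and 1.85. Id2, an inhibitor of E proteins needed by type 1 dendritic cells, had a median of 60.4 TP100K in myeloid cells and 0 in microglia of the losartan plate, and 115 and 3.04 on the control plate, with ratios of 1.79 and 3.88. Cbfa2t3, a corepressor, had 2.71 and 3.07, and Bcl11a, a factor of lymphoid and dendritic progenitors, had 2.71 and 2.67. Batf3, a factor of type 1 cells, had 0.84 and 1.94. Of 14 factors of microglia and macrophages, 10 passed, with list medians of -1.84 and -0.64. Mef2a, a MADS-box factor, had ratios of -2.58 and -1.48, and Smad3, a mediator of TGF-beta signals, had -2.15 and -1.69.

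Of 11 listed genes of antigen presentation on MHC class II, 10 passed and 4 (H2-DMb2, H2-Oa, H2-Ob and Ciita) were past 2-fold toward myeloid cells on both plates. The other 6 were within 2-fold on the control plate. The list median was 1.71 on the losartan plate and 0.57 on the control plate, and all 10 ratios were positive on both. H2-Aa, the alpha chain of the I-A molecule, had a median of 1188 TP100K (0 to 2615) in myeloid cells and 86.1 (0 to 1515) in microglia of the losartan plate. On the control plate its median was 1009 (93.9 to 1762) in myeloid cells and 754 (25.3 to 1434) in microglia. Myeloid medians of the plates were near each other, the microglia of the control plate stood closer to them than those of the losartan plate, and the ratios were 1.72 and 0.42. H2-Ab1 had 1.71 and 0.57, H2-Eb1 1.59 and 0.57, and Cd74, the invariant chain that guides class II through the cell, 1.23 and 0.24.

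The DO heterodimer of H2-Oa and H2-Ob curbs the peptide loader DM. H2-Oa had a median of 43.1 TP100K (0 to 128) in myeloid cells and 0 (0 to 75.5) in microglia of the losartan plate, and 45.7 (0 to 131) and 0 (0 to 9.90) on the control plate, with ratios of 1.84 and 4.09. H2-Ob was above 0 in 30 of 34 myeloid cells and 6 of 24 microglia of the losartan plate, and in 14 of 25 and 1 of 16 on the control plate, with ratios of 1.76 and 4.45. Both were thus detected in more myeloid cells than microglia on each plate. Ciita, the coactivator that switches class II genes on, averaged 80.1 TP100K in myeloid cells and 17.3 in microglia (2.15), and 43.6 and 18.3 on the control plate (1.21).

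H2-DMb1 and H2-DMb2 encode near-identical beta chains of DM, and their reads could be split between them by the expected-count method, so their separate values are uncertain. H2-DMb2 averaged 47.1 TP100K in myeloid cells and 7.74 in microglia of the losartan plate, and 26.5 and 4.07 on the control plate, with ratios of 2.46 and 2.44. H2-DMb1 averaged 94.0 and 55.2, and 84.4 and 83.3, with ratios of 0.76 and 0.02. As counted, the pair differed in contrast by type, and the split of shared reads between them was not tested. H2-DMa, the alpha chain of DM, had ratios of 1.05 and 0.10.

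**Figure D4:**
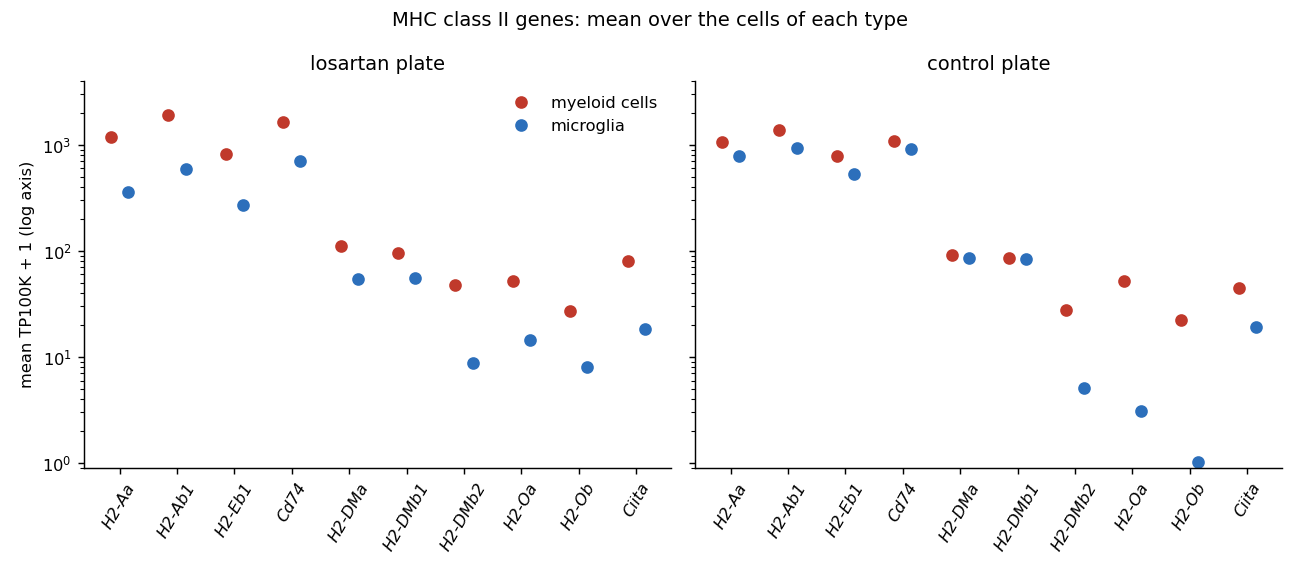
Mean TP100K + 1 on a log axis over the myeloid cells (red) and the microglia (blue) for 10 MHC class II genes on the losartan plate (left) and the control plate (right). On the control plate the pairs of points for H2-Aa to H2-DMb1 lie close together, while H2-DMb2, H2-Oa, H2-Ob and Ciita are apart on both plates.

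Promoters of class II genes share a motif known as the Y box, an inverted CCAAT bound by the factor NF-Y, and the start regions of 5 of these genes are printed to show it for genes with and without a contrast on both plates. The letters ATTGG, or CCAAT on the other strand, were searched from 250 bases before to 50 bases after the start of each gene in RefSeq (GRCm38.p6). They were found in 7 of 7 class II genes with an entry, and in 12289 of 32851 promoters (37.4%), so a match alone is common. Of those not printed, H2-DMa held the letters 198 bases before the start. H2-Eb1 held them in both orientations, 59 and 35 bases before. The printed 140 bases run from 120 before to 20 after the start, 5′ to 3′ on the gene's strand, and capitals mark the motif.
H2-Aa, chr17:34287804-34287943, minus strand: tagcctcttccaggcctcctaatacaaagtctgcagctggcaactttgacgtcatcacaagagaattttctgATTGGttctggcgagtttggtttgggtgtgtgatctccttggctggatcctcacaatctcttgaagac
H2-DMb1, chr17:34153071-34153210, plus strand: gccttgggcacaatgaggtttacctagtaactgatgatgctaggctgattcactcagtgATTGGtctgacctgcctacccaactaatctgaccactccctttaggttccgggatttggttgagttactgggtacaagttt
H2-DMb2, chr17:34145129-34145268, plus strand: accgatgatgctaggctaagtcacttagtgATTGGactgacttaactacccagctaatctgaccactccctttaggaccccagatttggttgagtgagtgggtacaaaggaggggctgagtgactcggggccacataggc
H2-Oa, chr17:34092259-34092398, plus strand: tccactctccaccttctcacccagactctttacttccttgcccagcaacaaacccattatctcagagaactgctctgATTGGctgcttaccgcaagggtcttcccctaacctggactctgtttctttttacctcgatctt
H2-Ob, chr17:34238785-34238924, plus strand: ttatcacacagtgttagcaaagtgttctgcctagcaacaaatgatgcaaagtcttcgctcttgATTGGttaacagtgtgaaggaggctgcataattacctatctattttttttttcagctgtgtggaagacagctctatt
The motif lay in the same orientation in all 5 printed, 48 bases before the start of H2-Aa, 61 before H2-DMb1, 90 before H2-DMb2, 43 before H2-Oa and 57 before H2-Ob. H2-Aa and H2-DMb1, which were not past 2-fold on the control plate, held it as did the 3 that were, although the separate values of H2-DMb1 and H2-DMb2 are uncertain. These matches are letters in a window and say nothing of binding in these cells.

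Most genes of MHC class I and peptide loading were not past 2-fold on both plates. All 15 listed genes passed and 3 were higher in myeloid cells on both plates, beside 4.79% of all genes. The list medians were 0.44 and 0.13, beside 0.01 and 0.08 over all genes. Tap1 and Tap2, which pump peptides into the endoplasmic reticulum, had ratios of 2.06 and 1.05 and of 1.14 and 1.12, and Psmb9, an immunoproteasome subunit, had 1.23 and 1.75. B2m, the shared light chain, averaged 447 TP100K in myeloid cells and 523 in microglia of the losartan plate, and 391 and 609 on the control plate (-0.23 and -0.64). H2-K1 and H2-D1 were within 2-fold on both plates, and reads of such class I genes may be shared with near-identical copies.

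Of 18 genes of costimulation and T cell-directed cytokines, 8 passed and Icosl, Cd83 and Tnfsf9 were higher in myeloid cells on both plates, with list medians of 1.01 and 0.85. Icosl, the ligand of ICOS, had ratios of 1.22 and 1.65. Cd83, which stabilises class II on mature dendritic cells, averaged 42.8 TP100K in myeloid cells and 15.2 in microglia of the losartan plate, and 79.4 and 36.2 on the control plate. Its control-plate difference was carried by few cells, since the median was 7.75 in myeloid cells and 23.9 in microglia there, and the difference of mean log2 values was -0.47. Cd86, a ligand of CD28, had ratios of 0.36 and 1.05, and Cd40 had 0.97 and -0.01. Il12b, a subunit of IL-12, was at 0 in all 34 myeloid cells of the losartan plate and above 0 in 1 of 25 on the control plate, at 0.360 TP100K.

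All 20 listed small calcium-binding, annexin and actin-binding genes passed, and 9 were higher in myeloid cells on both plates, 1 (Anxa3) was lower and 10 were neither. Ratios were negative for 2 of 20 on the losartan plate and 6 of 20 on the control plate, with list medians of 1.5 and 1.19. Lsp1, a leukocyte actin-binding protein, had a median of 127 TP100K (20.7 to 663) in myeloid cells and 0 (0 to 96.1) in microglia of the losartan plate, and 101 (8.15 to 304) and 6.91 (0 to 48.8) on the control plate. Every myeloid cell was above 0, and the ratios were 3.41 and 2.99. S100a6 had 3.05 and 2.13, S100a11 2.75 and 2.17, and Tmsb10, a thymosin that binds free actin, 2.10 and 2.65. Vim, the intermediate filament vimentin, had 1.73 and 1.96, and Anxa2, which binds membranes through calcium, 2.71 and 1.95. With all cells of the microglia label, cluster 11 included, S100a11 (-0.85), Anxa1 (-0.64) and Anxa2 (-0.34) were below 0 on the control plate, and Anxa1 (-1.996) on the losartan plate.

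On the microglial side Apoe ranked first by the smaller of its 2 ratios. It encodes a lipid carrier of macrophages and glia. In myeloid cells it had a median of 0 TP100K on both plates, with highest cells of 53.6 and 55. In microglia it had a median of 53.2 (0 to 2735) on the losartan plate and 1088 (245 to 6910) on the control plate. All 16 microglia of the control plate were above every myeloid cell of their plate, and 12 of 24 were on the losartan plate. The ratios were -6.52 and -7.56.

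The 3 chains of C1q, which starts the classical complement pathway, followed. C1qb had a median of 0 TP100K (0 to 103) in myeloid cells and 495 (0 to 1563) in microglia of the losartan plate, and 0 (0 to 45.7) and 377 (90.2 to 605) on the control plate. Its ratios were -5.65 and -6.82, and 19 of 24 and 16 of 16 microglia lay above every myeloid cell of their plate. C1qa had ratios of -5.39 and -5.87 and C1qc -5.30 and -6.07. All 3 were above 0 together in 5 of 34 myeloid cells and 21 of 24 microglia of the losartan plate, and in 1 of 25 and 15 of 16 on the control plate. This contrast was of like size on both plates, unlike that of P2ry12.

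The start regions of C1qb and C1qc are printed because both genes were high in microglia on both plates. The core GGAAGT, or ACTTCC on the other strand, of sites for PU.1, a factor of macrophages and dendritic cells, was found in both entries and in 7809 of 32851 promoters (23.8%). Each sequence runs from 250 bases before to 50 after the start, in RefSeq GRCm38.p6, with the core in capitals, 53 bases before the start of C1qb and 195 before that of C1qc.
C1qb, chr4:136886151-136886450, minus strand: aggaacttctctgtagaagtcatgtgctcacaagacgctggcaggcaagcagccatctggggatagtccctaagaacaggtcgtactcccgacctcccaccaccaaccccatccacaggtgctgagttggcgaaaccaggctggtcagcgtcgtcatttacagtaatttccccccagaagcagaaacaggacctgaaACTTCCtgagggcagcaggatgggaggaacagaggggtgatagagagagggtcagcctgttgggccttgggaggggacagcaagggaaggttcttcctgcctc
C1qc, chr4:136892865-136893164, minus strand: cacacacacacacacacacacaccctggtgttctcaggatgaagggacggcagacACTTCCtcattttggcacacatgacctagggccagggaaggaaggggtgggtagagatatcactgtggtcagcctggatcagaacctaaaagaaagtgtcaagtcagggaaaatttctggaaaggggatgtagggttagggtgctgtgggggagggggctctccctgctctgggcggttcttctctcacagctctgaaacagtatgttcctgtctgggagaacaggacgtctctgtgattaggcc
In both the core lay on the reverse strand, and nothing follows from the match about binding.

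Of 15 complement genes, 11 passed and 9 were higher in microglia on both plates, with Cfp as the exception named above and list medians of -3.25 and -3.09. C3ar1, the receptor of the C3a fragment, had a median of 0 TP100K (0 to 27.8) in myeloid cells and 56.3 (0 to 118) in microglia of the losartan plate, and was at 0 in all 25 myeloid cells against a median of 6.58 (0 to 109) in microglia of the control plate. C5ar1, the C5a receptor, had ratios of -4.17 and -3.93. C3, the central component, averaged 0.489 in myeloid cells and 13.2 in microglia, and 0.919 and 15.3 on the control plate. Itgam, the CD11b chain of complement receptor 3, had ratios of -1.98 and -2.35.

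Of 26 lysosomal genes, 25 passed and 15 were past 2-fold toward microglia on both plates. Ratios were negative for all 25 on the losartan plate and for 22 on the control plate, where 3 were positive, with list medians of -1.51 and -1.58. Ctsd, the main aspartic protease, had a median of 6.39 TP100K (0 to 312) in myeloid cells and 363 (10.3 to 2205) in microglia of the losartan plate, and 0 (0 to 41.6) and 120 (0 to 763) on the control plate (-4.99 and -4.78). Lgmn, the asparaginyl protease legumain, had medians of 17.1 and 6.75 in myeloid cells, against 283 and 195 in microglia, every one of which was above 0 (-3.63 and -3.32). Ctsb had -2.82 and -3.40 and Ctsl -3.42 and -3.02. Ctss, the protease that trims the invariant chain in antigen-presenting cells, was high in both types, averaging 260 in myeloid cells and 698 in microglia, and 230 and 708 on the control plate (-1.42 and -1.61).

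Cst3, cystatin C, which inhibits cysteine cathepsins, was alike in myeloid cells of the 2 plates, with medians of 605 TP100K (0 to 1859) and 755 (37.3 to 1426). In microglia its median was 1118 (0 to 4364) on the losartan plate and 61.5 (28 to 128) on the control plate, so its ratio was -0.67 on the losartan plate and 3.42 on the control plate.

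Lipid handling and engulfment genes were also lower in myeloid cells. Of 20 genes of lipid handling and the Trem2 response, 14 passed and 7 were higher in microglia on both plates, with list medians of -1.40 and -0.90. Trem2, a lipid-sensing receptor, had a median of 0 TP100K (0 to 24.8) in myeloid cells and 34.6 (0 to 255) in microglia of the losartan plate, and 0 (0 to 4.54) and 12.9 (0 to 57) on the control plate (-4.84 and -4.03). Abca1, the cholesterol exporter, was above 0 in 1 of 34 and 1 of 25 myeloid cells and in 16 of 24 and 13 of 16 microglia. Of 15 apoptotic cell receptors and bridging factors, 7 passed and 5 were higher in microglia, with medians of -1.73 and -3.25. Mertk, a receptor kinase for dead cells, had ratios of -5.00 and -3.85, Lrp1, a scavenger receptor, had -3.96 and -3.25, and Axl, a relative of Mertk, had -1.38 and -2.38.

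Receptors for antibodies, microbes and nucleotides were also higher in microglia for some members. Of 9 Fc receptor genes, 6 passed and Fcgr2b, Fcgr3 and Fcer1g were higher in microglia, with list medians of -1.25 and -2.13. Fcgr3, an activating receptor for IgG, was above 0 in 17 of 34 myeloid cells and 23 of 24 microglia, and in 6 of 25 and 16 of 16 on the control plate (-2.87 and -3.69). Of 18 Toll-like receptor genes, 12 passed and 6 were higher in microglia, with medians of -1.08 and -1.69. Cd14, the coreceptor for lipopolysaccharide, had ratios of -3.26 and -5.03 and Tlr2, a receptor for bacterial lipoproteins, -1.21 and -2.55. Tlr3, which reads double-stranded RNA, did not pass the filter, with 3 of 34 myeloid cells and 5 of 24 microglia above 0 on the losartan plate and 8 of 25 and 2 of 16 on the control plate.

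Purine and lipid-sensing receptors split by member. Of 17, 12 passed, 6 were higher in microglia and 2 in myeloid cells, with medians of -1.48 and -1.41. P2ry13, a receptor for ADP, averaged 1.23 TP100K in myeloid cells and 95.8 in microglia of the losartan plate (-5.44), and on the control plate it was at 0 in all 25 myeloid cells and averaged 11.1 in microglia. Entpd1, the CD39 enzyme that breaks down ATP, had ratios of -3.16 and -1.62. The 2 higher in myeloid cells were Ffar2, a receptor for short-chain fatty acids, with 4.49 and 2.76, and P2ry10, a receptor for lysophosphatidylserine. P2ry10 was above 0 in 25 of 34 myeloid cells and 2 of 24 microglia of the losartan plate, and in 16 of 25 and 0 of 16 on the control plate.

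Several of the 15 genes lowest in myeloid cells lay outside those groups. Cx3cr1, the fractalkine receptor, had a median of 0 TP100K (0 to 71.7) in myeloid cells and 172 (0 to 630) in microglia of the losartan plate, and 0 (0 to 4.73) and 9.42 (0 to 153) on the control plate (-5.03 and -4.80). Rnase4, a secreted ribonuclease, was above 0 in 2 of 34 and 0 of 25 myeloid cells and in 18 of 24 and 13 of 16 microglia. Olfml3, a secreted protein of microglia, was above 0 in 2 of 34 and 0 of 25 myeloid cells and in 18 of 24 and 11 of 16 microglia. Emr1, the F4/80 macrophage antigen, was above 0 in 3 of 34 and 0 of 25 myeloid cells and in 12 of 24 and 11 of 16 microglia. Sepp1, the selenium carrier selenoprotein P, had ratios of -4.16 and -4.57, and Sgk1, a serum- and glucocorticoid-induced kinase, -5.33 and -4.71. Lyz2, a lysozyme gene with a near-identical copy (Lyz1) that may share its reads, had a median of 0 (0 to 92.9) in myeloid cells and 69.4 (0 to 1614) in microglia of the losartan plate, and 1.43 (0 to 336) and 383 (18.4 to 1972) on the control plate.

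Of 20 monocyte and macrophage markers, 14 passed, 8 were higher in microglia and 1, Plac8, was higher in myeloid cells, with list medians of -3.27 and -3.08. Plac8, a small cysteine-rich protein, averaged 117 TP100K in myeloid cells and 32.2 in microglia, and 105 and 25 on the control plate (1.82 and 2.03). Ccr2, the receptor that draws monocytes from the blood, gave no shared direction (0.44 and -0.46). Of 12 genes of iron and heme handling, 10 passed and Hmox1, Slc11a1, Hpgds and Trf were higher in microglia on both plates. Slc11a1, a metal transporter of phagosomes, had ratios of -3.91 and -3.71.

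In other groups few genes were past 2-fold in the same direction on both plates. Over all genes the shares were 4.79% toward myeloid cells and 4.51% toward microglia. Of 34 interferon-induced genes, 33 passed and only Ifit1 and Ifi205 were higher in myeloid cells on both plates, while ratios were positive for 29 and 22 of the 33, with list medians of 0.79 and 0.30. Another 3 of the 33 (Gbp4, Cxcl9 and Cxcl10) were past 2-fold in opposite directions, beside 1.99% of all genes. Ifi205, an interferon-inducible gene of a family with close copies that may share reads, averaged 101 TP100K in myeloid cells and 8.16 in microglia, and 153 and 19.1 on the control plate (3.48 and 2.94). Cxcl10, a chemokine that draws T cells, was past 2-fold in opposite directions, at 4.21 and -2.55, with a median of 0 in both types on both plates. Of 90 cytosolic ribosomal protein genes, 86 passed and 0 were past 2-fold on both plates. Ratios were positive for 82 and 72 of the 86, with list medians of 0.77 and 0.28 against 0.01 and 0.08 over all genes. Of 22 cell cycle genes, 7 passed and 0 were past 2-fold in the same direction, with 6 and 7 positive ratios. Within 20 passing immediate early and heat shock genes, Ier2 was higher in myeloid cells (1.11 and 2.20, though -0.18 on the control plate with all cells of the microglia label) and Atf3 in microglia (-1.63 and -1.42).

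**Figure D5:**
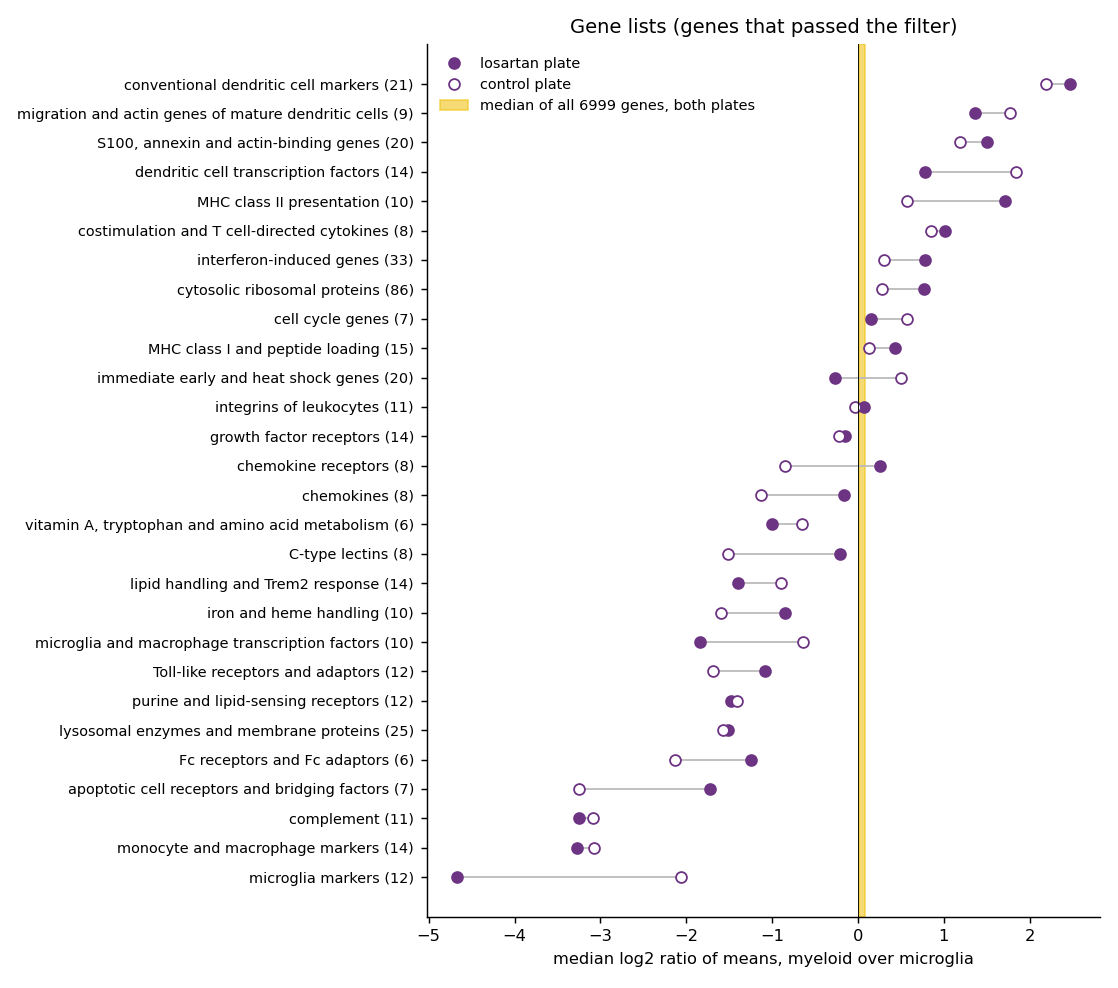
Median log2 ratio of means, myeloid over microglia, on the x axis for each gene list with at least 6 genes past the filter, with filled points for the losartan plate, open points for the control plate, the number of genes in brackets and a band at the medians of all 6999 genes. Dendritic cell markers lie furthest right (2.47 and 2.20), and microglia markers show the widest gap between plates (-4.67 and -2.07), lying furthest left on the losartan plate but not on the control plate.

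The 12 microglia markers that passed made up the list with the widest gap between plates among lists of 6 or more passing genes, with 8 lower in myeloid cells on both plates and Selplg and Bin1 past 2-fold in opposite directions. Tmem119, a membrane protein restricted to microglia in the brain, averaged 0.659 TP100K in myeloid cells and 180 in microglia of the losartan plate (-6.77). On the control plate it was at 0 in all 25 myeloid cells and averaged 6.02 in microglia. Siglech, another microglia marker, averaged 2.15 and 73.8 on the losartan plate, and 1.10 and 0.0471 on the control plate. Bin1, a membrane-bending protein, averaged 11.1 and 34.8, and 10 and 0.637, with ratios of -1.57 and 2.75.

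Calls near the limit of 2-fold were narrow. Nsun6 (1.243 and 1.001) and Sub1 (1.005 and 1.323) lay just inside on the myeloid side and Arl8b (1.066 and 0.998) and Htatsf1 (1.215 and 0.992) just outside. On the microglial side Upf1 (-1.109 and -1.006) and Ccl6 (-1.9998 and -1.007) lay just inside, and Clec16a (-0.9997 and -1.081) and Zfp26 (-1.583 and -0.998) just outside.

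The same ratios were taken on the other plates of the sort, which hold fewer cells. On the losartan+anti-PD1 plate (11 myeloid cells and 7 microglia), 245 of the 335 myeloid genes (73.1%) had a positive ratio and 163 were past 2-fold, and 221 of the 316 microglial genes (69.9%) had a negative ratio with 142 past 2-fold. On the anti-PD1 plate (3 myeloid cells and 4 microglia) the same directions held for 240 (71.6%) and 239 (75.6%). Of the 15 leading genes of each side, 13 and 13 kept their direction on the first of these plates and 14 and 14 on the second. The labels there come from the same clustering, so these counts are no independent check. The share of all genes with such ratios on those plates was not computed, so the counts stand without a background.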

How the data were processed

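Single cells were sequenced with Smart-seq2 (full-length, no molecular identifiers). The authors aligned reads with Bowtie to mm10 and, per the submitters' notes, quantified them with RSEM 1.2.8. The study's methods speak of TPM, but the deposited values are expected counts, not divided by gene length (74.5% of values above 0 in the 99 cells are exact whole numbers). Low-quality cells and doublets (by scatter gate) had been removed by the authors, and no doublet caller was run here. Cell types and clusters were the deposited annotation.

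Expected counts were scaled to 100000 per cell, averaged over the cells of a type on a plate and compared as a log2 ratio with 1 TP100K added. Genes above 0 in 25% of the cells of either type on each plate were kept. With 1 sample per type and plate, no test was run. Each cell's depth is given in ranges by type, and no interval covers differences between animals. The text names the 15 genes highest and lowest by the smaller of the 2 ratios, 10 genes opposite between plates, and members of 35 gene lists (571 genes in the table, 2 not in it). Cells and lists were chosen with earlier results of these data known. The alternatives were planned, except for 2 added after seeing the data, namely scaling without Rn45s and leaving out the myeloid cell with all microglia markers. Limiting the myeloid cells to cluster 5 was among those planned and left out no cell. Columns of other sorts (838) were not used. Some items are not reported here. Promoters came from RefSeq GRCm38.p6. The tables were read with pandas 2.3.3 and NumPy 2.4.6 under Python 3.11.15, intervals came from SciPy 1.17.1 and plots from matplotlib 3.10.9. The steps were tested on simulated data.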

Additional observations from a re-analysis of the deposited data

Results flagged for a closer look

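The 10 genes given here were past 2-fold in opposite directions on the losartan and control plates by the widest margin, as log2 ratios of myeloid cells over microglia. The difference between plates was not tested, and the groups of cells overlap for each gene. Cxcl10, a chemokine that draws T cells, had 4.21 on the losartan plate and -2.55 on the control plate, and Slfn4, an interferon-induced gene of myeloid cells, had 3.31 and -3.15. For Cxcl10 the means were 30.9 TP100K in myeloid cells and 0.724 in microglia of the losartan plate, and 10.7 and 67.5 on the control plate, where 6 of 16 microglia were above 0.

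Selplg, the P-selectin ligand and a microglia marker, had -1.82 on the losartan plate and 1.6 on the control plate. Its median was 51.6 TP100K in myeloid cells and 102 in microglia of the losartan plate, and 43.3 and 17 on the control plate. The other genes were detected in fewer cells. Hnrpll, a splicing regulator, had 1.94 and -1.85, Tnks2, a tankyrase, 1.61 and -2.92, and Trnt1, which adds CCA ends to transfer RNA, 1.6 and -2.10. In the other direction, Arhgap5, a GTPase-activating protein, had -2.38 and 1.80, Zfp367, a zinc finger protein, -1.63 and 1.82, Tmem115, a Golgi membrane protein, -2.18 and 1.63, and Rbm12, an RNA-binding protein, -1.62 and 1.6.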

How the results depend on the processing

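Of the counts of 335 genes higher in myeloid cells and 316 higher in microglia, those that moved by over 1.5 times did so as follows. With 10 TP100K added to the means they were 60 and 77, and with 0.1 TP100K added the microglial count was 494. A filter of 50% of cells left 195 and 174, and a limit of 4-fold left 73 and 79, both by asking more of each gene. The difference of mean logs gave 175 genes for microglia, agreement also on the losartan+anti-PD1 plate gave 143 and 130, and each plate alone gave 1042 to 1106 and 991 to 1111. Elsewhere the counts stayed within 1.5 times, for example 279 and 282 with every cell thinned to 50000 counts, 353 and 353 without Rn45s, and 331 and 321 without the myeloid cell with all microglia markers. Scaling by the 75th percentile set the median of all genes to 0.36 on the losartan plate and -0.11 on the control plate, with 319 and 279 calls. The share of the original 335 and 316 calls that a setting kept was 79.1% and 72.5% there, 64.5% and 63.6% with all cells of the microglia label (368 and 337 calls), and 54.3% and 46.5% under the difference of mean logs.

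Adding the microglia of cluster 11, which carry neutrophil markers, turned the control-plate ratios of Cdh1 (-0.44), Selplg (-0.30), S100a11 (-0.85), Anxa1 (-0.64), Anxa2 (-0.34) and Ier2 (-0.18), the control-plate median of the migration and actin genes of mature dendritic cells (-0.40), and the losartan-plate ratios of Cd24a (-1.30), Slfn4 (-2.78), Trnt1 (-0.58), Cd80 (-0.27) and Anxa1 (-1.996). Cd83 turned to -0.47 on the control plate under the difference of mean logs. The cause was not tested. The 15 genes lowest in myeloid cells kept their sign in all 180 values on each plate, and the 15 highest in 179 of 180 on each, the exceptions being Cd24a and Cdh1. These genes were picked as the most extreme in these same values, so the kept signs are no support for them. Some settings also left values unchanged. Limiting the myeloid cells to cluster 5 left out none of the 59, and leaving out cells of the losartan plate did not change the control plate. Types were compared within each plate throughout. No paired analysis was possible because, beyond the plate, the columns carry no replicate numbers to pair, and no result comes from a test. With 16 cells in the smallest group, a gene at 0 in every cell may still be above 0 in up to 18.75% of such cells by the limit of 3 cells.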
